A study of Mus musculus with 8 samples.

Results

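Melatonin and serotonin receptor genes were examined in the suprachiasmatic nucleus (SCN), the paired nucleus above the optic chiasm that serves as the main circadian pacemaker of mammals. They comprised 7 genes, Mtnr1a, Htr1a, Htr1b, Htr2a, Htr2c, Htr5b and Htr7, of 19938 genes on the array with a probe annotated to that gene alone. The genes were picked by name as known members of these receptor families, with earlier results of these data known. Each had 1 such probe. The SCN was laser microdissected from C57BL/6J mice kept in constant darkness after more than 2 weeks of 12 h light and 12 h dark. The 4 groups were Gpr176-/- at circadian time 18 (KO CT18), Gpr176-/- at circadian time 6 (KO CT6), wild type at circadian time 18 (WT CT18) and wild type at circadian time 6 (WT CT6). CT18 falls in the subjective night and CT6 in the subjective day. Each group had 2 whole-transcript arrays (A and B). The SCN of 10 animals went into each array, so differences between single animals were not seen. The labels give neither age nor sex, and they do not say which part of Gpr176 was deleted.

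Melatonin is the night hormone of the pineal gland, and its receptor MTNR1A couples to Gi proteins, which lower cAMP. In SCN neurons melatonin is known to reduce firing and to shift the clock. Serotonin reaches the SCN from the raphe nuclei of the brainstem, carries non-photic signals and dampens the response to light through several receptors. HTR1A and HTR1B are of the Gi-coupled kind. HTR2A and HTR2C couple to Gq and phospholipase C, and HTR7 couples to Gs and raises cAMP. GPR176, the orphan receptor missing in the knockout, couples to Gz, another G protein of the inhibitory class. C57BL/6 mice are known to make little or no pineal melatonin, and this background was shared by all 4 groups.

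Levels below are log2 values after quantile normalization of the 8 arrays, and a difference of 1 stands for a doubling of signal. Array medians as deposited lay between 7.34 and 7.39, and arrays A and B of a group correlated at r = 0.996 to 0.998 over probes. Genes with a mean level under 6.82, the 40th percentile of all probes, were not tested, which left 12452 genes. Of the 7 receptors 5 passed, and Htr1a and Htr7 did not. Differences are given with the standard error of a limma fit to all 8 arrays, with p-values adjusted by the Benjamini-Hochberg method over the whole set of tested genes. Calls were made at adjusted p-values under 0.05. The targeted gene, Gpr176, was at 8.42 and 8.56 in KO CT18 and 8.08 and 8.02 in KO CT6, against 9.73 and 9.87 in WT CT18 and 9.37 and 9.31 in WT CT6. Knockout minus wild type was -1.30 ± 0.0491 over both times (limma adjusted p = 3.37e-06), and each knockout array lay below each wild-type array. All 13 markers of SCN neurons were above the level filter. Mean levels of the 8 oligodendrocyte markers measured lay at 9.57 to 9.65 in KO CT18, 9.73 to 9.91 in KO CT6, 9.57 to 9.90 in WT CT18 and 9.86 to 9.98 in WT CT6. Those of the 8 leptomeningeal markers, in arrays A and B, were 7.12 and 7.12 in KO CT18 and 7.68 and 7.28 in KO CT6. They were 7.71 and 7.12 in WT CT18 and 7.20 and 7.54 in WT CT6. The part of either tissue in the results below was not tested. In pooled bulk tissue, fewer cells of a type and less RNA per cell cannot be told apart.

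The melatonin receptor gene Mtnr1a had the largest day-night difference of the receptors tested. Its level was 7.42 and 7.72 in KO CT18 and 7.00 and 7.04 in KO CT6, against 7.80 and 7.84 in WT CT18 and 7.22 and 7.07 in WT CT6. Each CT18 array lay above each CT6 array, whatever the genotype, and the lowest CT18 value was that of KO CT18 A. Mtnr1a rose at CT18 by 0.61 ± 0.0657 over both genotypes, or 1.53-fold (limma adjusted p = 0.000248, higher in 4 of 4 CT18 arrays). Only 0.811% of the genes tested had a larger difference in either direction.

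The rise of Mtnr1a was called in each genotype by itself. It was 0.55 ± 0.0929 in the knockout, or 1.47-fold (limma adjusted p = 0.00748), and 0.68 ± 0.0929 in wild type, or 1.60-fold (adjusted p = 0.00257). The knockout's rise minus that of wild type was -0.12 (limma adjusted p = 0.950 for the interaction). Its 95% confidence interval was -0.42 to 0.17, and a change of this day-night difference with genotype was not detected with 2 arrays a group. The 2 knockout arrays at CT18 differed by 0.30, the widest gap between arrays A and B of any receptor in any group. Leaving out KO CT18 A gave a rise in the knockout of 0.71, and leaving out KO CT18 B gave 0.40, both still called (adjusted p = 0.00288 and 0.0369).

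**Figure D1:**
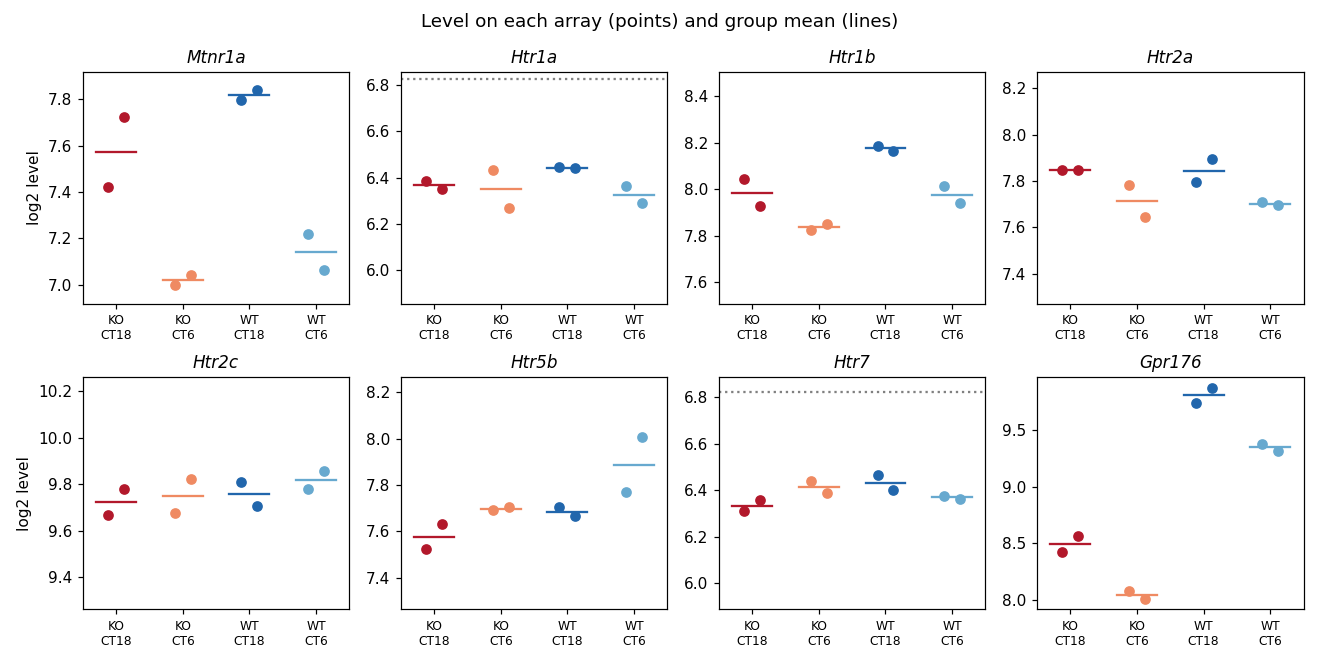
Level of each receptor gene and of Gpr176 (log2, quantile normalized) on each array, with arrays A and B of a group as points and their mean as a line. The vertical axes start at different levels, the receptor panels share one span and Gpr176 has a wider one, and the dotted line is the level filter of 6.82. The Mtnr1a panel shows every CT18 point above every CT6 point, Htr1a and Htr7 lie under the filter, and the Htr2c points overlap between groups.

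The pars tuberalis of the pituitary, which borders the hypothalamus, is a known site of very high Mtnr1a, so its markers were read beside this result. Of 8 markers of pars tuberalis and anterior pituitary with a value, 2 passed the level filter, Eya3 and Gh. Tshb and Cga, which encode the subunits of thyrotropin, were under the filter on all 8 arrays, at 5.60 to 5.80 and at 5.27 to 5.51. The growth hormone gene Gh was at 7.08 and 8.20 in KO CT18 and 8.31 and 7.56 in KO CT6, against 6.91 and 6.94 in WT CT18 and 6.82 and 8.30 in WT CT6. Arrays A and B lay far apart for Gh in every group but WT CT18. The mean of the list was 6.48 and 6.76 in KO CT18, 6.75 and 6.65 in KO CT6, 6.51 and 6.54 in WT CT18 and 6.48 and 6.73 in WT CT6. The part of pituitary tissue in the Mtnr1a result was not tested.

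The promoter of Mtnr1a is shown because this receptor gene had the largest day-night difference of those tested. That of Htr1b is shown because it was the other one called. Both are RefSeq sequences of build GRCm38.p6, from 250 bases before to 50 bases after the annotated start. The Mtnr1a window is chr8:45068857-45069156 on the plus strand and the Htr1b window is chr9:81633783-81634082 on the minus strand. Capitals mark an E-box (CACGTG), the element bound by CLOCK and BMAL1, and its variant the E-prime box (CACGTT, here read on the opposite strand as AACGTG).
Mtnr1a: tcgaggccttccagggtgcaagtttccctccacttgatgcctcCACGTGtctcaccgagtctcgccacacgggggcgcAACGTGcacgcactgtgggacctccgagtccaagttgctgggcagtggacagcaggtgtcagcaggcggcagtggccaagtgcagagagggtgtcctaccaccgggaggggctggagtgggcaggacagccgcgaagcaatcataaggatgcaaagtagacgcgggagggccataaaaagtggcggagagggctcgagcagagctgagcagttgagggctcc
Htr1b: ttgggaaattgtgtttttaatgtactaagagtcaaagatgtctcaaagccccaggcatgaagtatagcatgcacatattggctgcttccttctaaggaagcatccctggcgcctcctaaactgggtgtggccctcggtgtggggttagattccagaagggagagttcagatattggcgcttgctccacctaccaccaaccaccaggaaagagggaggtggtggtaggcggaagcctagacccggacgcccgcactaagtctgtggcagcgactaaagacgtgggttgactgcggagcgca

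In the Mtnr1a window the E-box begins at position -207 and the E-prime box at position -172 relative to the start. Of 32851 RefSeq promoter windows of this length, 7.15% held CACGTG and 4.68% held CACGTT, on either strand. Also searched on both strands were the cAMP response element (TGACGTCA, in 1.79% of windows), its half-site (TGACG, contained in the full element, in 20.8%), the D-box (TTATGTAA, in 0.938%) and a nuclear receptor half-site (AGGTCA, in 16.3%). None of the 6 motifs was present in the Htr1b window, and Htr2a had none either. Htr1a held an E-prime box, Htr2c a nuclear receptor half-site and Htr7 the half-site TGACG. These matches describe letters in a window and show no binding. Of the 7 genes 6 had a promoter in the RefSeq table, and Htr5b was not looked up elsewhere.

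The genes whose pattern was most like that of Mtnr1a were Prex2, an exchange factor for Rac GTPases (r = 0.994), Gas7, a growth arrest-specific cytoskeletal gene (r = 0.991), and Zfp219, a zinc finger gene (r = 0.989). Likeness was Pearson's r over the 8 arrays, among 11673 tested genes with provisional symbols and a few large families left out, and the arrays share the day-night and genotype groups, so it is given as a description only. For the others these were Eif4g3, Dzip1 and Gria2 for Htr1b (r = 0.981, 0.963 and 0.963), Fancg, Dalrd3 and Tpi1 for Htr2a (r = 0.976, 0.966 and 0.958), Tor1aip2, Lrrc27 and Yme1l1 for Htr2c (r = 0.982, 0.954 and 0.954), and Oxct1, Gfpt1 and Spin1 for Htr5b (r = 0.963, 0.956 and 0.955). In all, 537 genes had an r over 0.9 with Mtnr1a, against 51 for Htr1b and 31 to 35 for Htr2a, Htr2c and Htr5b. The CT18 minus CT6 differences over both genotypes of the 3 genes like Mtnr1a were smaller than that of Mtnr1a, at 0.30 for Prex2, 0.40 for Gas7 and 0.29 for Zfp219 (limma adjusted p = 0.000899, 0.000295 and 0.00315).

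**Figure D2:**
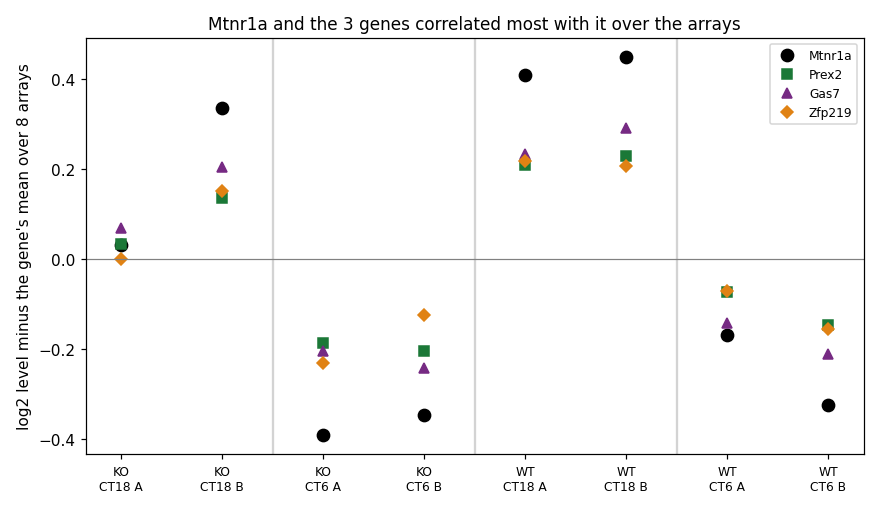
Log2 level minus the gene's mean over the 8 arrays, for Mtnr1a (black circles) and the 3 genes correlated most with it, on each array in the order KO CT18, KO CT6, WT CT18, WT CT6. All CT18 points of Mtnr1a lie above 0 and all its CT6 points below, with KO CT18 A nearest to 0 for each of the 4 genes.

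Among the Gi-coupled serotonin receptors, HTR1B is an autoreceptor and heteroreceptor on axon terminals. It limits transmitter release from retinal and raphe inputs to the SCN, and receptor protein on those inputs was not measured here. Htr1b RNA of the SCN tissue also rose at CT18. Its level was 8.04 and 7.93 in KO CT18 and 7.83 and 7.85 in KO CT6, against 8.19 and 8.17 in WT CT18 and 8.01 and 7.94 in WT CT6. CT18 lay above CT6 within each genotype, but KO CT18 B lay below both WT CT6 arrays, so the times overlapped when the genotypes were put together. The rise was 0.17 ± 0.0415 over both genotypes, or 1.13-fold (limma adjusted p = 0.0187). It was 0.15 ± 0.0587 in the knockout (limma adjusted p = 0.171) and 0.20 ± 0.0587 in wild type (adjusted p = 0.0760), neither called. The call over both genotypes was lost without KO CT18 A, KO CT6 A, WT CT18 A or WT CT6 B, with adjusted p-values between 0.0524 and 0.0692.

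Htr5b, a 5B serotonin receptor that is intact in rodents, differed in the other direction. Its level was 7.52 and 7.63 in KO CT18 and 7.69 and 7.70 in KO CT6, against 7.71 and 7.67 in WT CT18 and 7.77 and 8.01 in WT CT6. CT18 arrays lay below CT6 arrays within each genotype, and WT CT6 B stood apart from the other 7 arrays. The difference was -0.16 ± 0.0551 over both genotypes and did not pass (limma adjusted p = 0.0753), with -0.12 ± 0.0779 in the knockout and -0.20 ± 0.0779 in wild type. Without WT CT6 A it was -0.22 and passed (adjusted p = 0.0182), while without WT CT6 B it was -0.10 (adjusted p = 0.204).

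Htr1a, a somatodendritic receptor that quiets neurons, was under the level filter and was not tested. It was at 6.39 and 6.35 in KO CT18 and 6.43 and 6.27 in KO CT6, against 6.44 and 6.44 in WT CT18 and 6.36 and 6.29 in WT CT6. Its 8 values spanned 0.177, and CT18 and CT6 overlapped in the knockout.

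The Gq-coupled receptors had no call at either time or genotype. Htr2a was at 7.85 and 7.85 in KO CT18 and 7.78 and 7.64 in KO CT6, against 7.79 and 7.90 in WT CT18 and 7.71 and 7.70 in WT CT6. Each CT18 array lay above each CT6 array, by as little as 0.01 between WT CT18 A and KO CT6 A. The difference of 0.14 ± 0.0445 over both genotypes did not pass (limma adjusted p = 0.0621), and it was 0.13 in the knockout and 0.14 in wild type. It passed without KO CT6 A, at 0.17 (adjusted p = 0.0393).

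Htr2c is the receptor for which choroid plexus, the tissue that makes cerebrospinal fluid, is known as the richest source in the brain. Its level was 9.67 and 9.78 in KO CT18 and 9.67 and 9.82 in KO CT6, against 9.81 and 9.71 in WT CT18 and 9.78 and 9.86 in WT CT6. The groups overlapped throughout, and all 8 values lay within 0.189. The day-night difference over both genotypes was -0.04, with a 95% confidence interval of -0.15 to 0.07 (limma adjusted p = 0.634). Ttr, the transthyretin gene that choroid plexus expresses most strongly, had a mean level under the filter and lay between 6.53 and 7.08 on the 8 arrays. Of 9 choroid plexus markers with a value 3 passed the filter, Clic6, Folr1 and Kcnj13. The mean of the list of 9 was 6.43 and 6.46 in KO CT18, 6.44 and 6.44 in KO CT6, 6.51 and 6.37 in WT CT18 and 6.40 and 6.49 in WT CT6. Kcnj13 was at 6.71 and 6.68 in KO CT18 and 7.49 and 6.76 in KO CT6, against 7.65 and 6.69 in WT CT18 and 6.67 and 7.25 in WT CT6. Folr1 lay between 6.88 and 7.21 on the 8 arrays, and Clic6 between 6.71 and 7.21. The part of choroid plexus in the Htr2c level was not tested.

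Htr7, the Gs-coupled receptor through which serotonin shifts the SCN clock by day, was under the level filter. It was at 6.31 and 6.36 in KO CT18 and 6.44 and 6.39 in KO CT6, against 6.46 and 6.40 in WT CT18 and 6.38 and 6.36 in WT CT6. CT18 lay below CT6 in the knockout and above it in wild type, over a span of 0.152 in all. With the deposited values, before quantile normalization, Htr7 was at 6.35 and 6.38 in KO CT18 and 6.50 and 6.36 in KO CT6, and these overlapped.

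Of the 5 receptors tested, 2 were called higher at CT18 over both genotypes, and 0 lower, against 16.8% of all genes called in either direction, 10.0% called higher and 6.79% called lower. The count was 1 without KO CT18 A, without WT CT18 A or without WT CT6 B. The CT18 and CT6 arrays did not overlap for 2 of 5, Mtnr1a and Htr2a, against 21.0% of all genes. The median difference of the 5 was 0.14, beside a median of 0.01 for all genes tested. The 4 other tested receptors of these families had a median of -0.13, with 0 called higher and 1 called lower. The 0.14 thus describes the genes picked by name and not the families as a whole. In the knockout 1 of 5 was called, Mtnr1a, against 7.16% of all genes (3.63% higher and 3.53% lower). In wild type 1 of 5 was called, again Mtnr1a, against 6.94% of all genes (4.40% higher and 2.54% lower).

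**Figure D3:**
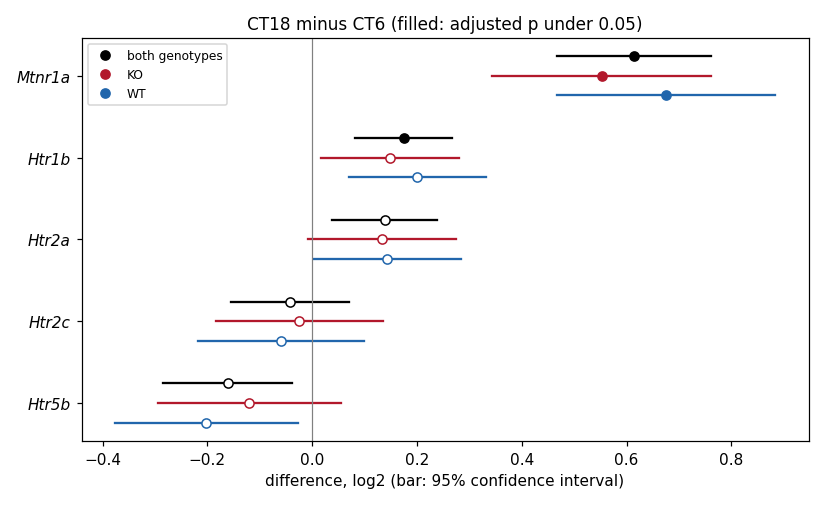
CT18 minus CT6 difference (log2) of the 5 receptor genes tested, over both genotypes (black), in KO (red) and in WT (blue), with 95% confidence intervals of the limma fit. Filled points passed an adjusted p under 0.05, which were all 3 of Mtnr1a and the one over both genotypes for Htr1b.

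The comparison of genotypes asked whether loss of Gpr176 shifted the receptors. None of the 5 was called by limma over both times, where 0.0241% of all genes were called, nor at CT18 or CT6, where 0.00803% were called at each. At an unadjusted p under 0.05 there were 3 of 5 over both times, 2 of 5 at CT18 and 2 of 5 at CT6, beside 12.0%, 12.5% and 4.24% of all genes. Knockout minus wild type over both times was -0.18 ± 0.0657 for Mtnr1a (limma adjusted p = 0.368), -0.16 ± 0.0415 for Htr1b (adjusted p = 0.342) and -0.15 ± 0.0551 for Htr5b (adjusted p = 0.374), the 3 with the smaller unadjusted p. The value of Mtnr1a was -0.11 without KO CT18 A, and that of Htr5b was -0.09 without WT CT6 B. With both times together, the 4 knockout and 4 wild-type arrays overlapped for each of the 5 receptors, against 4.22% of all genes without overlap. Within a time, both knockout arrays lay below both wild-type arrays for Mtnr1a, Htr1b and Htr5b, at CT18 and at CT6. That compares only 2 arrays with 2, and the share of all genes that did so was not counted.

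At CT18, knockout minus wild type was -0.25 ± 0.0929 for Mtnr1a and -0.19 ± 0.0587 for Htr1b, with 95% confidence intervals of -0.45 to -0.04 and -0.32 to -0.06 before adjustment. Single arrays moved the value of Mtnr1a at CT18, which was -0.10 without KO CT18 A and -0.40 without KO CT18 B. At CT6 it was -0.12 ± 0.0929 for Mtnr1a, -0.14 ± 0.0587 for Htr1b and -0.19 ± 0.0779 for Htr5b. Mtnr1a at CT6 was -0.04 without WT CT6 A and -0.20 without WT CT6 B, and Htr5b at CT6 was -0.31 without WT CT6 A and -0.07 without WT CT6 B. Htr2a and Htr2c were at 0.01 and -0.05 over both times, with intervals of -0.09 to 0.11 and -0.16 to 0.06. For the interaction none of the 5 was called by limma, and none had an unadjusted p under 0.05, beside 0% and 4.86% of all genes. Of the 5 differences over both times 4 lay below 0, with a median of -0.15 beside -0.01 for all genes. For the 4 other tested receptors of these families the median was -0.0037, with 2 above 0.

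**Figure D4:**
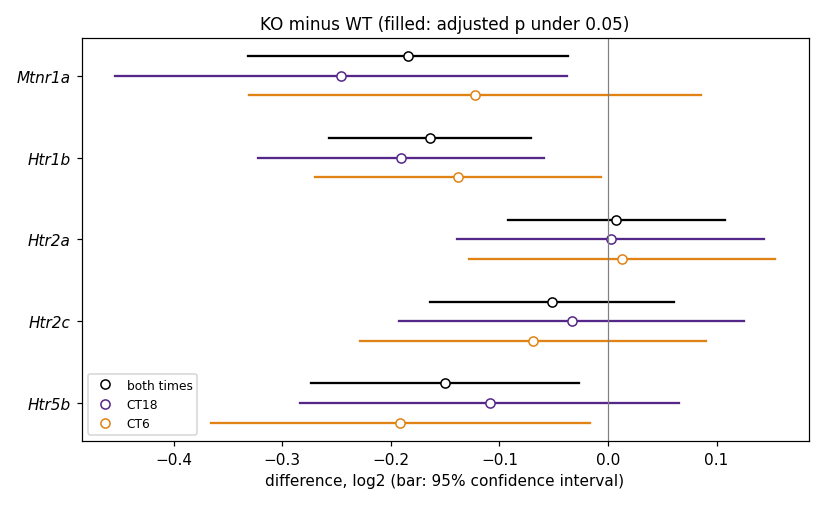
KO minus WT difference (log2) of the 5 receptor genes tested, over both times (black), at CT18 (purple) and at CT6 (orange), with 95% confidence intervals of the limma fit. All points are open, since none passed an adjusted p under 0.05, and the points of Mtnr1a, Htr1b, Htr2c and Htr5b lie below 0.

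The other receptors of these families gave 1 call between CT18 and CT6 over both genotypes, where 16.8% of all genes tested were called. Of 10, 4 were above the level filter, Gpr50, Htr4, Htr5a and Htr6, while Mtnr1b, Htr1d, Htr1f, Htr2b, Htr3a and Htr3b were not and had mean levels of 5.68 to 6.42. Htr5a, the Gi-coupled relative of Htr5b, was at 8.21 and 8.39 in KO CT18 and 8.50 and 8.59 in KO CT6, against 8.35 and 8.29 in WT CT18 and 8.57 and 8.62 in WT CT6. All CT18 arrays were below all CT6 arrays, and Htr5a fell at CT18 by 0.26 on the log2 scale over both genotypes (standard error 0.0495, limma adjusted p = 0.00643). Gpr50, an orphan relative of the melatonin receptors that is known to pair with MTNR1A and reduce its binding of melatonin, was at -0.18 ± 0.0610 and did not pass (adjusted p = 0.0673). Htr4, a Gs-coupled receptor, was at -0.08 and Htr6, another of that coupling, at -0.02, neither called.

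Genes of serotonin and melatonin handling were set beside the receptors. Of 9 serotonin genes tested, 1 rose at CT18 over both genotypes and 3 fell, beside 10.0% and 6.79% of all genes. Maoa, the monoamine oxidase that breaks serotonin down, was at 8.05 and 8.27 in KO CT18 and 8.56 and 8.56 in KO CT6, against 8.33 and 8.27 in WT CT18 and 8.44 and 8.41 in WT CT6. Over both genotypes it fell at CT18 by 0.26 on the log2 scale (limma adjusted p = 0.00660). The difference of Maoa was -0.40 ± 0.0707 in the knockout, where it was called (limma adjusted p = 0.00905), and -0.12 ± 0.0707 in wild type, where it was not (adjusted p = 0.349). The difference between these, at -0.28, did not pass (limma adjusted p = 0.944 for the interaction). The vesicular monoamine transporter Slc18a2 (-0.19) and the decarboxylase Ddc (-0.18), which dopamine neurons use as well, fell too, and the aldehyde dehydrogenase Aldh2 rose (0.27). Slc18a2 was not called without any 1 of 6 of the arrays, Ddc without any 1 of 3 and Aldh2 without any 1 of 2. Of 6 raphe serotonin neuron markers with a value 3 passed the filter, Slc18a2, Gata2 and Lmx1b, at mean levels of 7.81, 6.84 and 7.30. Tph2 and Slc6a4, which define serotonin neurons, were under the filter on all 8 arrays, at 5.58 to 5.67 and 5.69 to 5.97. Of 2 genes of the melatonin list tested, the sulfotransferase Sult1a1 rose (0.22, limma adjusted p = 0.0427), a call lost under 8 of 14 alternatives, and Nqo2, a melatonin-binding quinone reductase, was at 0.02 and did not pass. Aanat, the rate-limiting enzyme of melatonin synthesis, was under the filter at a mean of 6.41.

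Of the G protein partners, 10 genes of Gi, Gz and the GIRK channels that these proteins open were tested, and 2 rose and 1 fell. Among all genes tested 10.0% rose and 6.79% fell, and the same shares stand beside the lists that follow. The GIRK subunit Kcnj9 was at 7.98 and 7.97 in KO CT18 and 7.49 and 7.67 in KO CT6, against 7.96 and 7.96 in WT CT18 and 7.83 and 7.53 in WT CT6, and rose by 0.34 ± 0.0658 (limma adjusted p = 0.00759). Kcnj3 rose by 0.15, a call lost under 6 of 15 alternatives, and Kcnj5 fell by 0.29. Of 12 Gs and cyclase genes, Adcy1 (0.38) and Adcy5 (0.19) rose and the olfactory-type G protein subunit Gnal fell (-0.15), the last losing its call under 11 of 15 alternatives. Of 8 Gq and phospholipase C genes, Prkca, a protein kinase C (0.30), and the phospholipase Plcb4 (0.20) rose and none fell. Plcb4 was not called without KO CT18 B, KO CT6 A, WT CT18 A or WT CT6 A, and Adcy5 was not called without WT CT18 A.

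Of 10 scaffold, arrestin, receptor kinase and RNA editing genes, 3 rose and 2 fell, beside 10.0% and 6.79% of all genes. S100a10, also known as p11, a small protein that binds HTR1B and HTR4 and brings them to the cell surface, was at 9.90 and 9.80 in KO CT18 and 10.25 and 10.20 in KO CT6, against 9.85 and 9.65 in WT CT18 and 10.20 and 10.18 in WT CT6. It fell by 0.41 on the log2 scale (limma adjusted p = 0.000612), opposite in direction to Htr1b. Adarb1, an enzyme that edits the RNA of Htr2c among others, was at 9.02 and 9.03 in KO CT18 and 8.71 and 8.65 in KO CT6, against 9.06 and 9.06 in WT CT18 and 8.71 and 8.71 in WT CT6. It rose by 0.35 ± 0.0359 (limma adjusted p = 0.000197), while Htr2c itself was not called. Editing of Htr2c was not measured by these arrays. The receptor kinase Grk5 rose (0.32), the arrestin gene Arrb1 fell (-0.22), and Mpdz, a scaffold that binds the tail of HTR2C, rose by 0.14, a call lost under 9 of 15 alternatives.

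Over these 7 lists together, 19 of 55 tested genes were called between CT18 and CT6, 11 higher and 8 lower, or 34.5% against 16.8% of all genes. The count was 12 without WT CT18 A. The lists were chosen with earlier results of these data known, so the share of 34.5% is given as a description only. Between genotypes over both times, 0 of the 55 were called by limma, beside 0.0241% of all genes, and 4 of the 55 had an unadjusted p under 0.05, beside 12.0% of all genes.

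**Figure D5:**
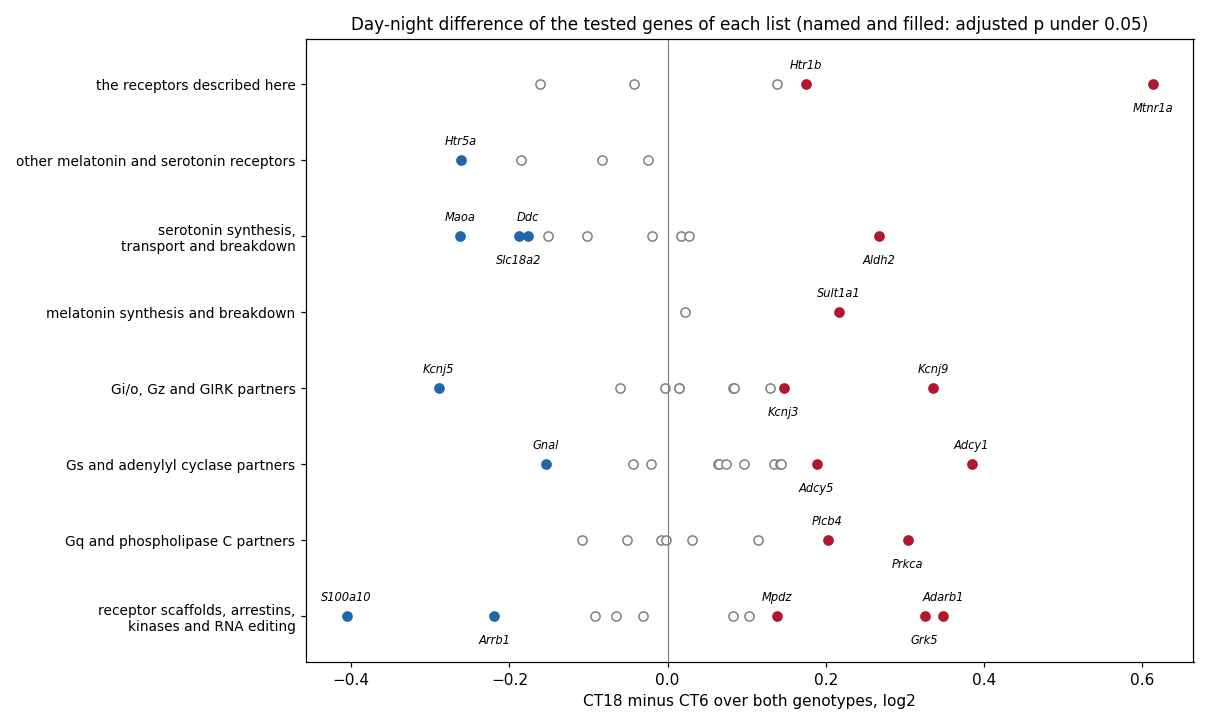
CT18 minus CT6 difference over both genotypes (log2) of every tested gene of the receptors described here and of the 7 lists beside them, 1 row a list. Filled and named points passed an adjusted p under 0.05 (red higher, blue lower at CT18), open points did not. Mtnr1a at 0.61 lies farthest to the right and S100a10 at -0.41 farthest to the left.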

How the data were processed

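The deposited values are log2 probe levels, 28853 per array on 8 arrays. The log2 scale was read from the values, and the background correction, summarisation and normalization behind them are not given in the sources used here. Per the labels' protocols, RNA was column purified, amplified with a whole-transcript kit and biotin labelled. Quartiles of the arrays spread by up to 0.139, above a limit of 0.1, so the arrays were quantile normalized, a step that removes shifts common to most genes.

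Probes were named from the platform annotation, 21789 of them with exactly 1 symbol, 1621 with several and 5443 with none. The brightest probe stood for each of 19938 genes, and probes of different genes are not comparable in level. Limma 3.58.1 under R 4.3.3 fitted a mean per group to all 8 arrays, with 4 residual degrees of freedom and 7 contrasts. The fit was tested on simulated data with independent noise for each gene and array. Such data lack shifts shared by the genes of a pool, so the calls above were not tested against these. Only 2 arrays per group limit the precision, with a median standard error of 0.0636 between 2 groups.

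Alternatives were the deposited values, median centring, no filter, a filter at the 60th percentile, the mean of a gene's probes, an intensity trend, arrays A and B as blocks, and leaving out each array. Every receptor was named. From the other lists the called genes were named, at most 6 a list, and for likeness the 3 highest correlations. The receptors, lists and tests were chosen with earlier results of these data known.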

Additional observations from a re-analysis of the deposited data

Results flagged for a closer look

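After quantile normalization, Htr7 differed between times in opposite directions in the 2 genotypes. Both CT18 arrays lay below both CT6 arrays in the knockout and above them in wild type. Htr7 was flagged for this pattern, and the share of all genes with it was not counted. Being under the level filter, it was not tested beside the other receptors. With no filter, its day-night change in the knockout minus that in wild type was -0.145 ± 0.0745 (limma adjusted p = 0.968, unadjusted p = 0.0829), made up of -0.08 in the knockout and 0.06 in wild type. The difference did not pass, and in the deposited values the knockout arrays overlapped between times.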

How the results depend on the processing

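The call of Mtnr1a over both genotypes held under all 14 alternatives that tested it, with differences of 0.54 to 0.69 when 1 array was left out and adjusted p-values of up to 0.00225. The count of 2 receptors called over both genotypes was 1 with the filter at the 60th percentile, which leaves Mtnr1a untested, and 1 to 3 when 1 array was left out. That filter gave 0 in the knockout for the same reason. In wild type it left the count at 1, but the gene called was Htr1b (0.20, limma adjusted p = 0.0405) in place of Mtnr1a. In wild type the deposited values gave 2, adding Htr1b (0.24, adjusted p = 0.0453). The 19 other pathway genes became 12 to 16 when 1 array was left out. No alternative called a receptor between genotypes or for the interaction.

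Differences that changed sign were all uncalled. Htr2a, knockout minus wild type, was -0.00558 with median centring over both times (0.00772 as reported), and at CT18 -0.00478 with deposited values and -0.0274 with median centring (0.00233 as reported). The interaction of Htr2c was -0.0113 with deposited values and -0.0109 with median centring (0.0354 as reported). With 1 array left out, Htr2a between genotypes ranged from -0.0277 to 0.0422 over both times, from -0.0518 to 0.0534 at CT18 and from -0.0575 to 0.0820 at CT6. Htr2c ranged from -0.0976 to 0.0487 between times in the knockout, and between genotypes from -0.0893 to 0.0227 at CT18 and from -0.142 to 0.0042 at CT6. Interactions ranged from -0.274 to 0.0284 for Mtnr1a, -0.111 to 0.0059 for Htr1b, -0.0911 to 0.0596 for Htr2a, -0.0377 to 0.108 for Htr2c and -0.0372 to 0.200 for Htr5b. Htr6 between times ranged from -0.0717 to 0.0225. The cause of these shifts was not tested.

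With A and B as a replicate block, 2 receptors and 18 other pathway genes were called over both genotypes, and among the receptors no call changed. The letters share no stated source, and the gaps between A and B correlated from -0.222 to 0.257 between groups, so they were not read as pairs.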
